A study of Mus musculus with 6 samples.

Results

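*Abat* and 9 genes that work beside its product in the mitochondrion were followed in the hearts of high fat diet (HFD)- and normal diet (ND)-fed mice. The genes were *Abat*, *Tk2*, *Dguok*, *Suclg1*, *Suclg2*, *Sucla2*, *Rrm2b*, *Polg*, *Polg2* and *Tfam*. A probe was taken as a member when the array design gave it exactly 1 of these 10 names and it was not a control, which left 16 of 55681 probes for 10 of the 36163 gene names on the array. Of the 16 probes, 14 were tested, and each of the 10 genes had at least 1 tested probe. All mice were male C57BL/6, with no allele or transgene named for the samples. They were put on the diets at 4 weeks of age and killed after 4 months, either on ND, a standard chow, or on HFD, which gave 60% of its kcal as fat. There were 3 hearts per diet, each on 1 array read in Cy3. The labels name the heart without its chambers, so a difference in the piece of tissue taken cannot be seen from them. In such bulk RNA, fewer cells of a type and less RNA per cell cannot be told apart.

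GABA transaminase (ABAT) is the mitochondrial enzyme that breaks down GABA. Together with the dehydrogenase ALDH5A1 it forms the GABA shunt, a side route into the tricarboxylic acid cycle. The enzyme is also known to take part in the conversion of deoxynucleoside diphosphates to triphosphates in mitochondria, together with succinyl-CoA ligase and nucleoside diphosphate kinase. A heart muscle cell no longer divides and makes few deoxynucleotides in its cytosol, so the copying of its mitochondrial DNA depends on salvage inside the organelle and on the p53-inducible ribonucleotide reductase. Inherited loss of *TK2*, *DGUOK*, *SUCLG1*, *SUCLA2*, *RRM2B*, *POLG* or *ABAT* is known to deplete mitochondrial DNA in human tissues.

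Some of the member probes are shown by their last 30 bases, written 5′ to 3′ as printed on the array. Both probes named *Abat* are given because only the brighter of them could be measured. The probes of *Sucla2* and *Suclg2* are given because they tell the alternative β-subunits of succinyl-CoA ligase apart, and the probes of *Polg2* because they read different parts of the same transcript. Capitals mark AATAAA, the usual polyadenylation signal, which was searched on the printed strand only. It was found in 10.1% of all 55681 probes of 60 bases and in 2 of the 16 member probes, in *Polg2* outside the stretch shown.
Abat A_55_P2015495: atgtttcctgtgttaatcagtattcttaaa
Abat A_55_P2090577: ttcaacaaaccctgactgtggctAATAAAa
Sucla2 A_52_P533792: aatgtgtggagaatgtaatcaccacatagg
Suclg2 A_52_P58181: ctaggttcattcacaagggcatttattcta
Polg2 A_66_P104473: aaatattctctgttgagttcattcgcttac
Polg2 A_55_P2023191: tctgggaaactacgggcgactcttcttcac
On mm9, the build of the array files, the *Abat* probes lay on the plus strand at chr16:8621576-8621635 (A_55_P2015495) and chr16:8603069-8603128 (A_55_P2090577), 18507 bases apart. The *Sucla2* probe lay at chr14:73995311-73995370 on the plus strand and the *Suclg2* probe at chr6:95424712-95424771 on the minus strand. The *Polg2* probes lay on the minus strand at chr11:106629572-106629631 (A_66_P104473) and chr11:106640274-106640333 (A_55_P2023191). The exons and untranslated regions around them were not analysed here.

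Values below are levels, the log2 of the intensity relative to the 75th percentile of the same array, and HFD minus ND is a difference of such levels. Probes differ in how brightly they light up, so differences between probes were read only as changes from ND to HFD within hearts, not as which gene was more abundant. On the 6 arrays the 75th percentile lay between 453 and 544 intensity units, and 49.3% to 53.0% of probes were well above background. All arrays shared 1 slide, whose row 1 held HFD 1 and HFD 2 and whose row 2 held the remaining 4 hearts. Pearson's r across probes was 0.990 to 0.995 between hearts of 1 diet and 0.989 to 0.994 between hearts of different diets. All 8 tested genes of the ventricular cardiomyocyte list were well above background, with a mean level of 8.38 to 8.41 in ND and 8.23 to 8.47 in HFD hearts. Most of these genes mark heart muscle in general, so the list does not tell ventricle from atrium. Of the 27590 probes tested, 11.9% had an unadjusted limma p below 0.05, 0.0145% passed the Benjamini-Hochberg adjustment, and 19.0% had no overlap between diets. Among the 14 tested member probes, 2 (*Abat* and *Rrm2b*) had an unadjusted p below 0.05 (14.3%), 0 passed the adjustment, and 3 had no overlap (21.4%). Both shares are near those of all probes and are no result about the members as a group. The sizes of the differences divided them: *Abat* was lower by 2.01 on the log2 scale, and the 13 tested probes of its 9 partner genes lay between −0.29 and 0.26.

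**Figure D1:**
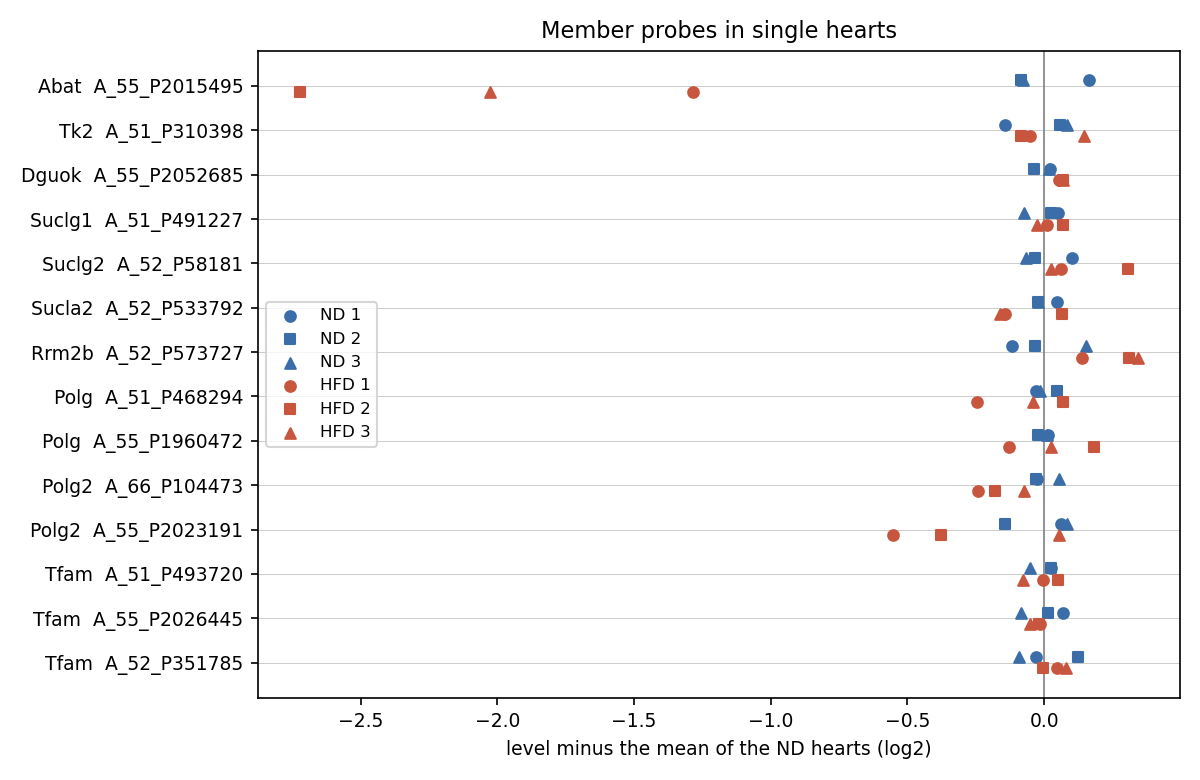
Levels of the 14 tested member probes in each heart (blue, ND; red, HFD; symbols, hearts 1 to 3 of a diet), as log2 difference from the mean of the 3 ND hearts of the same probe. The HFD hearts of *Abat* lie at −1.29 to −2.72, and every partner value stays between −0.55 and 0.34.

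*Abat*, the transaminase itself, was read by probe A_55_P2015495 on transcript NM_172961. In replicates 1 to 3 its level was 3.25, 3.001 and 3.01 on ND, and on HFD it was 1.80, 0.36 and 1.06. The diets did not overlap, the highest HFD heart being 1.20 below the lowest ND heart. HFD minus ND was −2.01 (SE 0.35, 95% interval −2.87 to −1.16, adjusted p = 0.155), so *Abat* had an unadjusted p below 0.05 but did not pass the adjustment. As a share of the ND mean, the HFD hearts were at 41.0%, 15.2% and 24.5%. The HFD hearts thus differed among themselves over a range of 1.44, against 0.25 in ND. The SD of *Abat* within HFD was 0.72, higher than that of 97.8% of all probes tested, whose median was 0.138. Within ND its SD was 0.14, higher than that of 61.6% of probes, whose median was 0.108. Among all probes tested, 0.471% were at least 2-fold lower in HFD, 0.910% differed by 2-fold or more in either direction, and *Abat* was the only 1 of the 14 member probes among them.

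The reading of *Abat* rests on a single probe. The other probe of that name, A_55_P2090577, was designed on the cDNA AK160802 and did not rise well above background in any heart, with levels of −6.88 to −6.12 in both diets. It was not tested and gives no reading of that transcript. The spot of A_55_P2015495 was well above background in all 6 hearts and carried no outlier flag. In HFD 1 the software did not find the spot and measured at its nominal position, as it did for 5.80% to 6.48% of the spots well above background on the 6 arrays. Without HFD 1, HFD minus ND for *Abat* was −2.37 (SE 0.23, adjusted p = 0.164).

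HFD 2, the heart lowest in *Abat*, stood apart in other transcripts. The mean level of 5 tested atrial muscle genes was 0.92 in HFD 2, against 4.18 to 7.31 in the other 5 hearts, and 5 of 5 were lower in HFD on average. That direction rested on HFD 2: without it, 0 of the 5 were lower and the median difference turned from −0.57 to 1.44. The mean level of 6 adipocyte genes was −2.12 in HFD 2, against −0.22 to 1.07 elsewhere, with 5 of 6 lower in HFD, and 2 of 6 without HFD 2. Of all probes tested, 52.0% were lower. Of 6 erythroid genes, 6 were lower in HFD and 4 had an unadjusted p below 0.05, against 6.63% of all probes lower with such a p, and 6 of 6 were lower without HFD 2 as well. Their mean levels were 3.11 to 3.76 in ND and 2.39 to 2.79 in HFD. Of 5 brown adipocyte genes, the 2 tested were higher in HFD with an unadjusted p below 0.05, *Cidea* by 0.33 and *Zic1* by 0.32 (5.24% of all probes). *Ucp1*, their defining gene, was well above background in HFD 1 alone, at −0.53 against −7.17 to −6.77 in the other hearts. HFD 2 was also lowest in the fibroblast list mean (3.29, others 3.63 to 3.79) and the hepatocyte mean (−2.77, others −2.09 to −1.64). In the nerve and glia list it was at −0.05, against 0.12 to 0.48 in the others. It was highest in the endothelial list (2.86, others 2.67 to 2.82) and within the range of the others in the leukocyte list. Of 3 skeletal muscle genes tested, 3 were lower with and without HFD 2, the lowest heart (−1.22, others −1.11 to −0.47). The part of these lists in the *Abat* result was not tested. Without HFD 2, HFD minus ND for *Abat* was −1.66 (SE 0.24, adjusted p = 0.230). With the slide row as a term it was −2.03. Row 1 held only HFD hearts, so such a term leaves HFD 3 alone against the ND hearts.

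**Figure D2:**
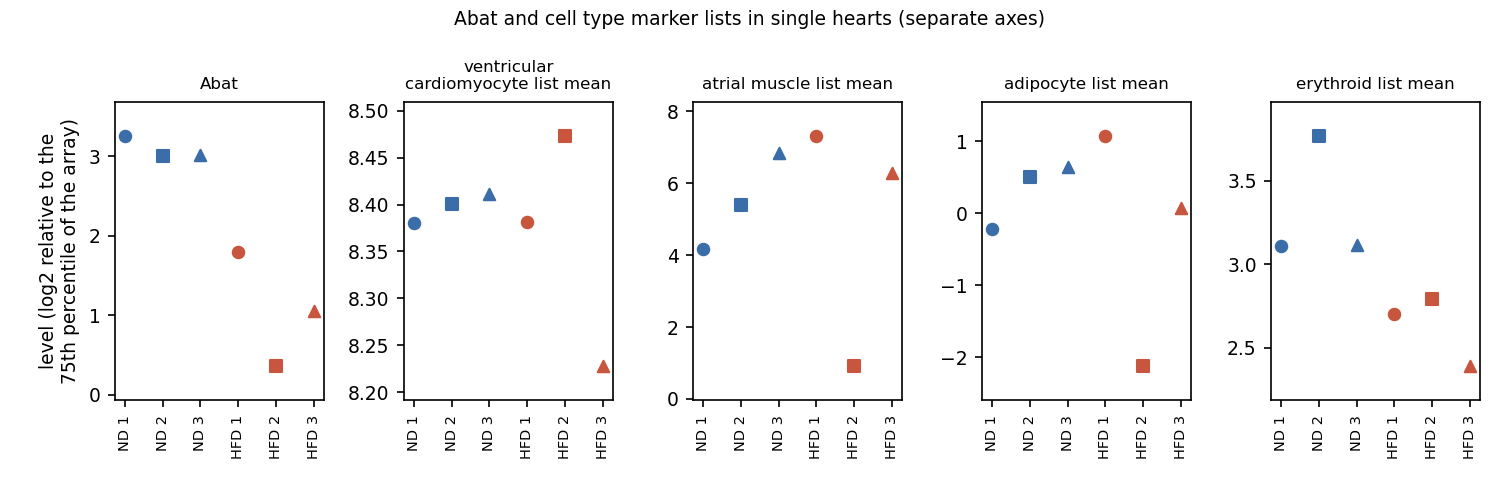
Level of *Abat* and mean level of 4 cell type marker lists in each heart, in log2 relative to the 75th percentile of the array, on separate vertical axes that do not start at 0. *Abat* separates the diets and spreads over 1.44 within HFD, while the atrial and adipocyte lists are lowest in HFD 2 and the erythroid list is lower in all 3 HFD hearts.

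Salvage of deoxynucleosides inside mitochondria begins with a pair of kinases. *Tk2* encodes thymidine kinase 2, which phosphorylates thymidine and deoxycytidine. Its level was −0.30, −0.10 and −0.07 in the ND hearts and −0.21, −0.24 and −0.01 in the HFD hearts, fully overlapping. HFD minus ND was 0.0022 (SE 0.10, 95% interval −0.25 to 0.25, adjusted p = 0.996). *Dguok* encodes deoxyguanosine kinase, which serves the purine deoxynucleosides. Its level was 3.08, 3.03 and 3.08 in ND and 3.12, 3.13 and 3.13 in HFD. Every HFD heart was above every ND heart, by a small margin, as was the case for 7.92% of all probes. HFD minus ND was 0.064 (SE 0.061, 95% interval −0.085 to 0.21, adjusted p = 0.733). Its interval allows an HFD level between 94.3% and 115.9% of ND.

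Succinyl-CoA ligase converts succinyl-CoA to succinate and makes ATP or GTP according to its β-subunit. *Suclg1*, the shared α-subunit, was at 7.13, 7.10 and 7.01 in ND versus 7.09, 7.15 and 7.05 in HFD, a difference of 0.016 (SE 0.070, adjusted p = 0.951). *Sucla2*, the ATP-forming β-subunit, was at 7.60, 7.53 and 7.53 in ND versus 7.41, 7.62 and 7.39 in HFD, a difference of −0.079 (SE 0.085, adjusted p = 0.765). *Suclg2*, the GTP-forming β-subunit, was at 3.74, 3.60 and 3.57 in ND versus 3.70, 3.94 and 3.66 in HFD, a difference of 0.13 (SE 0.10, adjusted p = 0.671). The diets overlapped for all 3 subunits. HFD 2 was the highest of the 6 hearts for each of them. Without HFD 2 the difference was 0.04 for *Suclg2* and −0.15 for *Sucla2*. With the slide row as a term, which leaves HFD 3 alone against ND, these differences were 0.03 and −0.16. *Sucla2* was −0.05 without HFD 1, −0.04 without HFD 3 and −0.03 with quantile normalization.

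The β-subunits were also compared with each other inside each heart, a comparison chosen after their levels had been seen. Relative to the ND mean, *Sucla2* minus *Suclg2* was −0.05, 0.01 and 0.05 in the ND hearts and −0.20, −0.24 and −0.19 in the HFD hearts. The diets did not overlap, although they did for either subunit alone. The mean difference was −0.21, with SDs of 0.05 in ND and 0.03 in HFD, which puts the ratio of *Sucla2* to *Suclg2* in HFD at 86.4% of that in ND. Since the pair was chosen for its values, this is a description with no test. How often other pairs of probes separate the diets in this way was not determined. The 2 probes also differed in brightness, with ND means of 7.55 (*Sucla2*) and 3.64 (*Suclg2*). Quantile normalization moved *Sucla2* alone from −0.079 to −0.030. With 1 heart left out the difference ran from −0.24 to −0.19, and with quantile normalization it was −0.18. The other pairs overlapped: *Dguok* minus *Tk2* differed by 0.06 and *Polg* minus *Polg2*, each read by its brightest probe, by 0.09.

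**Figure D3:**
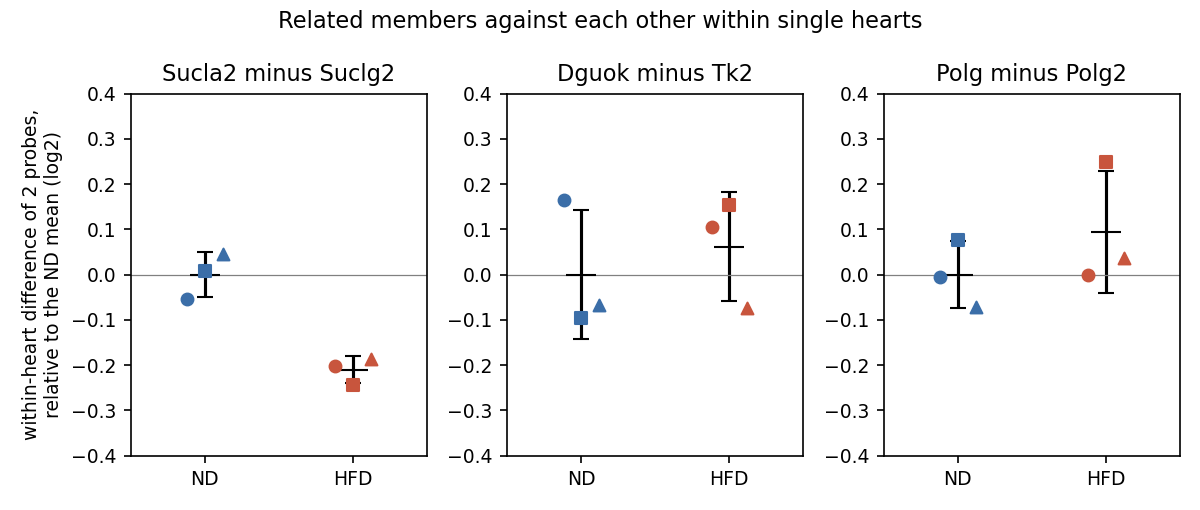
Difference between 2 member probes within each heart, relative to the mean of the ND hearts, in log2 (symbols, single hearts; horizontal bars, mean; vertical bars, SD, n = 3). For *Sucla2* minus *Suclg2* the 3 HFD hearts lie at −0.19 to −0.24, below all ND hearts, whereas the diets overlap for the other pairs. The pairs were chosen after the member values had been seen, so this is a description.

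*Rrm2b* encodes the small subunit of ribonucleotide reductase that supplies deoxynucleotides outside S phase. Probe A_52_P573727 was dim, at −2.80, −2.72 and −2.53 in ND and −2.55, −2.38 and −2.34 in HFD. HFD 1 lay below ND 3, so the diets overlapped. HFD minus ND was 0.26 (SE 0.10, 95% interval 0.015 to 0.51, adjusted p = 0.404), with an unadjusted p below 0.05, and 5.24% of all probes had such a p and were higher in HFD. The other *Rrm2b* probe, A_55_P2008815, was well above background in 1 ND and 2 HFD hearts and was not tested. Its levels ran from −4.83 to −4.16 in ND and from −5.74 to −4.47 in HFD. *Rrm1*, the large subunit, differed by 0.04 (adjusted p = 0.845), and *Rrm2*, the small subunit of dividing cells, by 0.32 (adjusted p = 0.457), with overlap for both.

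Mitochondrial DNA is copied by DNA polymerase γ, made of the catalytic subunit *Polg* and the accessory subunit *Polg2*. The *Polg* probes gave −0.07 (A_51_P468294, SE 0.10, adjusted p = 0.818) and 0.03 (A_55_P1960472, SE 0.09, adjusted p = 0.937), both with overlap. In each of them HFD 1 was the lowest heart and HFD 2 the highest. For *Polg2*, probe A_66_P104473 was at 0.26, 0.26 and 0.34 in ND versus 0.05, 0.11 and 0.21 in HFD, with no overlap. Its difference was −0.17 (SE 0.07, 95% interval −0.35 to 0.02, adjusted p = 0.462). Of all probes tested, 11.1% were lower in HFD without overlap. Probe A_55_P2023191, nearer the start of the same transcript, was at −2.85, −3.05 and −2.82 in ND versus −3.46, −3.28 and −2.85 in HFD. HFD 3 lay within the ND range there, and the difference was −0.29 (SE 0.17, adjusted p = 0.564). With the slide row as a term, which leaves HFD 3 alone against ND, this probe gave 0.05, the opposite direction, and A_66_P104473 gave −0.07. The lower values of A_55_P2023191 were those of HFD 1 and HFD 2 on row 1. Without HFD 3 the *Polg2* probes gave −0.47 (A_55_P2023191) and −0.21 (A_66_P104473), and without HFD 1 they gave −0.16 and −0.13. For A_55_P2023191 both normexp background correction and array weights gave −0.14.

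*Tfam* encodes the factor that packs mitochondrial DNA and starts its transcription. Its 3 probes gave −0.01 (A_51_P493720), −0.03 (A_55_P2026445) and 0.04 (A_52_P351785), with SEs of 0.07 to 0.08, adjusted p of 0.889 to 0.973 and overlap in each. The brightest of them was at 3.14, 3.14 and 3.07 in ND versus 3.11, 3.17 and 3.04 in HFD. The 95% intervals of the 3 *Tfam* probes lay between −0.20 and 0.24. Over all 13 partner probes, 7 were higher and 6 lower in HFD, where 48.0% of all probes were higher, and 9 were within 0.1 of 0. Their median size of difference was 0.064, against 0.113 over all probes tested. Their 95% intervals together reached from 61.3% to 142.7% of the ND level, against 13.7% to 44.8% for *Abat*.

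**Figure D4:**
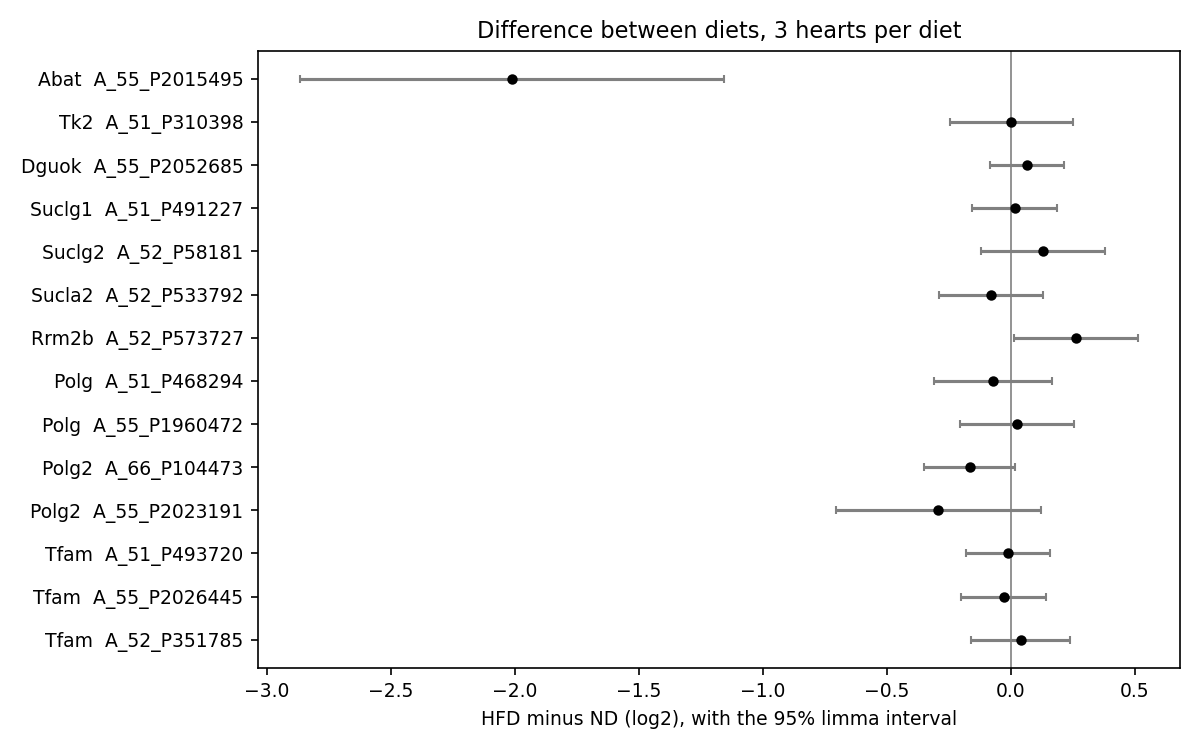
HFD minus ND for the 14 tested member probes, in log2, with 95% intervals from limma (n = 3 hearts per diet). The interval of *Abat* (−2.87 to −1.16) does not reach that of any partner probe, and among the partners only that of *Rrm2b* (0.015 to 0.51) leaves out 0.

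*Abat* was then set against each partner probe within the same heart, which removes whatever scales a whole array. For all 13 partner probes the diets did not overlap, and *Abat* was lower relative to the partner by 3.29-fold (*Polg2*, A_55_P2023191) to 4.84-fold (*Rrm2b*). The gap between the nearest HFD and ND hearts was 0.57 to 1.29 on the log2 scale. These 13 comparisons share the *Abat* probe, and the lack of overlap follows from the gap of *Abat* itself and the narrow spread of the partners, so they are a description and no further support.

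The remaining genes of the pathways were described by lists, with 1 probe per gene, the brightest tested one. Over 6 lists, 87 genes were tested, of which 62 (71.3%) were lower and 25 higher in HFD, against 52.0% lower over all probes. The 52.0% covers every tested probe, not the brightest of each gene, and the directions were counted in the main normalization only. With quantile normalization the bright members *Sucla2* and *Suclg1* moved up, from −0.079 to −0.030 and from 0.016 to 0.050. An unadjusted limma p below 0.05 was reached by 13 genes (14.9%), all lower, against 6.63% of all probes that were lower with such a p. Of the 87 genes, 0 passed the adjustment. The count of 13 depended on single hearts: it was 5 without ND 1, 6 without ND 2, 6 without HFD 3 and 14 without HFD 2. List medians ran from −0.11 to −0.04, and the median over all probes was −0.0081.

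In the GABA shunt and transport list, 6 of 12 genes were tested, 3 were higher and 3 lower, and 0 had an unadjusted p below 0.05. The GABA-forming decarboxylases *Gad1* and *Gad2* and the transporters *Slc6a11* and *Slc6a12* were too dim to be tested. *Aldh5a1*, which oxidises the succinic semialdehyde made by ABAT, was at 4.66, 4.65 and 4.67 in ND and 4.23, 4.57 and 4.61 in HFD. Its HFD hearts lay below its ND hearts, HFD 1 furthest, and the difference was −0.19 (SE 0.11, adjusted p = 0.584). Such lower values without overlap were found for 11.1% of all probes. *Aldh9a1*, which makes GABA from γ-aminobutyraldehyde, differed by 0.16 (SE 0.10, adjusted p = 0.615), and *Slc6a6*, the taurine transporter, by −0.19 (SE 0.09, adjusted p = 0.462).

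In the deoxynucleotide supply list, 23 of 24 genes were tested, 14 lower and 9 higher, with differences from −0.31 to 0.32 (*Rrm2*). Over all probes, 52.0% were lower. An unadjusted p below 0.05 was reached by 5, all lower, against 6.63% of all probes that were lower with such a p. *Nme4*, a mitochondrial nucleoside diphosphate kinase, was at 2.08, 2.11 and 2.08 in ND and 1.82, 1.83 and 1.79 in HFD. The hearts of a diet lay within 0.05 of each other and the diets did not overlap, with a difference of −0.28 (SE 0.06, adjusted p = 0.223). Lower values without overlap were found for 11.1% of all probes. *Nme6*, another kinase of that family, differed by −0.21 (SE 0.07) at its brighter probe and by −0.15 (SE 0.10) at the other. *Ak3*, the GTP:AMP phosphotransferase of the matrix, differed by −0.20 (SE 0.06). *Mpv17*, an inner membrane protein whose loss depletes mitochondrial DNA, differed by −0.17 (SE 0.06) and −0.15 (SE 0.06) at its 2 probes. The adjusted p of *Nme6*, *Ak3* and *Mpv17* was 0.313 to 0.588.

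In the list of mitochondrial DNA replication and transcription, 18 of 20 genes on the array were tested, 15 lower and 3 higher. Over all probes tested, 52.0% were lower. *Exog*, a mitochondrial exonuclease, was at −1.38, −1.46 and −1.23 in ND and −1.76, −1.93 and −1.98 in HFD. The diets did not overlap, as for the 11.1% of all probes that were lower without overlap. The difference was −0.53 (SE 0.10, adjusted p = 0.166). *Mterf2* and *Mterf1a*, of the mitochondrial transcription termination factor family, differed by −0.35 (SE 0.10, adjusted p = 0.285) and −0.22 (SE 0.08, adjusted p = 0.373). *Tfb1m*, which methylates mitochondrial ribosomal RNA, differed by −0.18 (SE 0.07, adjusted p = 0.402). The replicative helicase *Twnk*, the polymerase *Polrmt* and the single-strand binding protein *Ssbp1* had differences of −0.01, −0.09 and −0.06, all with overlap.

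Among 13 genes around succinyl-CoA, 9 were lower, where 52.0% of all probes were lower. *Oxct1*, which moves coenzyme A from succinyl-CoA to acetoacetate in ketone body use, was at 8.09, 8.06 and 8.04 in ND and 7.53, 7.68 and 7.46 in HFD. The diets did not overlap, and 11.1% of all probes were lower without overlap. The difference was −0.51 (SE 0.08, adjusted p = 0.136). *Mmut*, which makes succinyl-CoA from methylmalonyl-CoA, differed by −0.17 (SE 0.06, adjusted p = 0.393), while *Sdha* of succinate dehydrogenase differed by 0.01 (adjusted p = 0.988).

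Of 15 nuclear genes that mark mitochondrial content, 13 were lower, by 0.20 or less apart from *Cycs*, cytochrome c. Of all probes tested, 52.0% were lower. The mean level of the 15 genes was 7.64, 7.64 and 7.61 in ND and 7.54, 7.70 and 7.47 in HFD. HFD 2 was thus the highest of the hearts, and the lower mean came from HFD 1 and HFD 3. The brightest *Cycs* probe gave −0.25 (SE 0.09, adjusted p = 0.384) and its other 2 probes −0.09 and 0.21. *Cs*, citrate synthase, differed by −0.06 (adjusted p = 0.810). Of the transcripts encoded by mitochondrial DNA itself, 12 were tested and 8 were lower. The mean level of 11 of them was 7.17 to 7.25 in ND and 7.13, 7.31 and 7.03 in HFD, with HFD 2 again the highest heart. *mt-Nd6*, the subunit of complex I encoded on the opposite strand from the other proteins, was at −1.34, −1.05 and −1.26 in ND and −1.63, −1.63 and −1.51 in HFD. It differed by −0.37 (SE 0.10, adjusted p = 0.271) with no overlap, and 11.1% of all probes were lower without overlap. The other 11 lay between −0.14 and 0.05. Their probes were far brighter, with mean levels of 7.18 to 8.96 over the 6 hearts, so *mt-Nd6* was not read at a like signal.

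**Figure D5:**
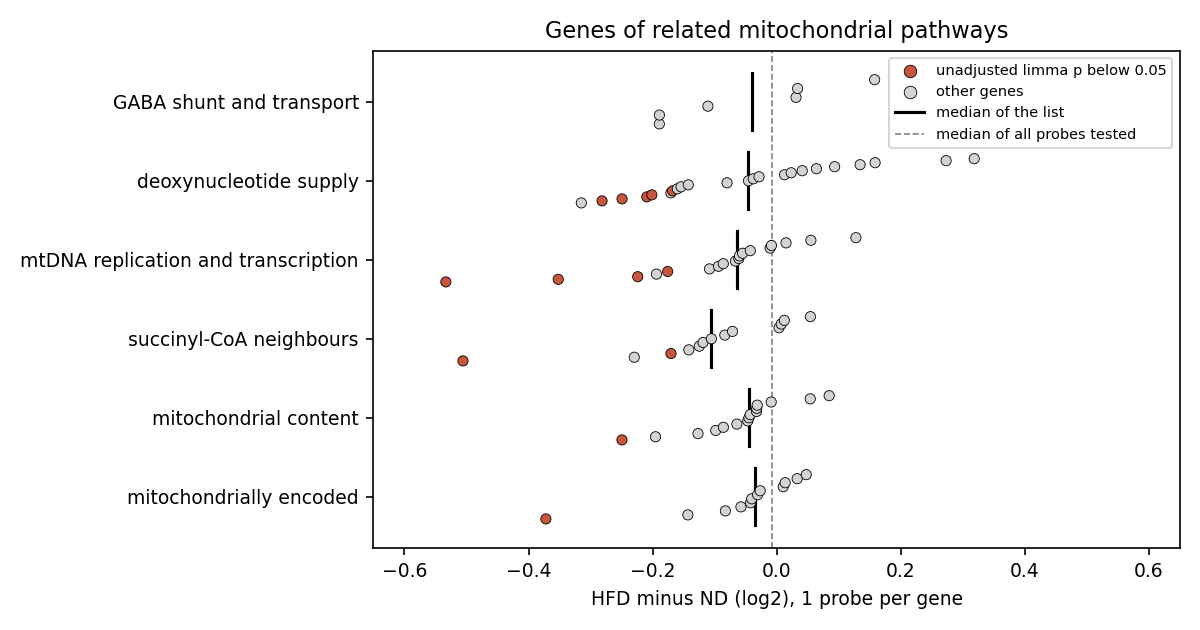
HFD minus ND in log2 for the 87 tested genes of 6 related pathway lists, 1 probe per gene (red, unadjusted limma p below 0.05; short vertical lines, list medians; dashed line, median of all probes tested). The 13 red points all lie below 0, and the list medians lie between −0.11 and −0.04.

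The 5 probes whose course over the 6 hearts was most like that of *Abat* were found among 18833 named probes well above background on all arrays. Likeness was the root mean square of the difference from *Abat* over the 6 hearts, after the ND mean of each probe was subtracted. Nearest were the 2 probes of *Cth*, cystathionine γ-lyase, at 0.49 and 0.51, followed by *Gpr37l1* and *Scgb1c1* at 0.60 each and *Bdh1*, a mitochondrial 3-hydroxybutyrate dehydrogenase, also at 0.60. *Cth* was at −2.05, −1.97 and −2.01 relative to the ND mean in HFD 1, HFD 2 and HFD 3 (probe A_51_P431737), where *Abat* was at −1.29, −2.72 and −2.03. For this *Cth* probe the mean difference, −2.01, was close to that of *Abat*, but the spread among HFD hearts was not. The other *Cth* probe was at −1.85, and *Gpr37l1*, *Scgb1c1* and *Bdh1* differed less, by −1.45, −1.58 and −1.50. The probes were picked for their likeness, so this is a description.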

How the data were processed

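RNA of 6 mouse hearts, 3 per diet, was measured on 6 one-colour Agilent arrays. The deposited intensities had been background-subtracted within each array by Agilent Feature Extraction 10.7.1.1 per the file headers, with nothing normalized between arrays. The authors also deposited log2 values of these arrays, whose making is not stated. This log2 set followed a quantile normalization (median difference at most 0.0019) and served as an alternative. Columns of other samples were absent (0).

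Control and outlier spots (127 to 190 per array) were left out, the 75th percentile of each array was subtracted on the log2 scale, and spots of a probe were averaged. A probe was tested when it stood well above background in all hearts of 1 diet or more, and diets were compared with limma 3.58.1 in R 4.3.3 (two-sided, moderated), with Benjamini-Hochberg adjustment over 27590 probes. No spot was saturated (0). The packages jsonlite 2.0.0, data.table (version 1.17.8) and statmod 1.5.0 were also used, and plots came from matplotlib 3.10.9 under Python 3.11.15. The fit was tested on simulated data. The number of hearts, 3 per diet, limits the precision of every mean.

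The members, lists and rules were chosen with earlier results of these data known. Named are all members, list genes with an unadjusted p below 0.05 (up to 6 a list), and the 5 probes most like *Abat*. Some list genes are counted but not reported singly here. Other genes of a list (*Aldh5a1*, *Aldh9a1*, *Slc6a6*, *Rrm1*, *Rrm2*, *Twnk*, *Polrmt*, *Ssbp1*, *Sdha*, *Cs*) were named for their role after their values were seen. The alternatives were quantile normalization, the authors' log2 values, normexp (offset 50), dim probes kept, probes above background on all 6 arrays, array weights, robust variances with an intensity trend, the t-test of the methods, a replicate block, the slide row, outlier spots kept, averaged probes, and each heart left out.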

Additional observations from a re-analysis of the deposited data

How the results depend on the processing

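*Abat* kept its direction in all 18 alternatives, from −2.37 to −1.66. The slide row compares HFD 3 alone with ND, so only its size of difference is given. In the other alternatives *Abat* kept an unadjusted p below 0.05, with adjusted p from 0.0698 (array weights) to 0.519 (no filter on dim probes). The count of member probes with an unadjusted p below 0.05 fell from 2 to 1 with normexp, no filter on dim probes or the trend with robust variances, each time leaving *Abat*. It was 1 (without ND 1, ND 2 or HFD 2) to 3 (without HFD 3, *Abat* and both *Polg2* probes) with 1 heart left out. The t-test of the methods also gave 3, *Abat*, *Dguok* and *Polg2* A_66_P104473. *Rrm2b* lay between 0.15 (normexp) and 0.34 throughout. The counts of marker genes without HFD 2 and the differences within pairs were added after seeing the data. The count of list genes fell from 13 to 6 with no filter, and was 5 (without ND 1) to 14 with 1 heart left out. It rose to 18 with the trend and robust variances and to 19 with array weights. The count over all probes tested rose as well, from 3275 to 3406 and 4463. With the trend and robust variances 1 list gene, *Oxct1*, passed the adjustment (adjusted p = 0.0401), against 0. The replicate numbers of the diets did not pair the hearts (correlations of deviations −0.15, 0.15 and 0.19). With the replicate block *Abat* was −2.01 (SE 0.25, adjusted p = 0.274) and the count of list genes 7.

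Differences near 0 changed sign. *Suclg1* was −0.018 with array weights and −0.028 with the slide row, *Polg* A_55_P1960472 −0.022 with averaged probes, and *Polg2* A_55_P2023191 0.054 with the slide row. *Tfam* A_51_P493720 was 0.0052 with quantile normalization, 0.027 with normexp and 0.0020 in the authors' table, and *Tfam* 0.00033 with averaged probes. With 1 heart left out, *Tk2* ran from −0.069 to 0.046, *Suclg1* from −0.020 to 0.041, the *Polg* probes from −0.14 to 0.015 (A_51_P468294) and from −0.051 to 0.10 (A_55_P1960472), and the *Tfam* probes from −0.040 to 0.022 (A_51_P493720), −0.070 to 0.0067 (A_55_P2026445) and −0.0073 to 0.10 (A_52_P351785). None of these passed a threshold, and the cause was not tested. *Polg2* A_55_P2023191 was not near 0 in the main fit, at −0.29, but changed sign to 0.054 with the slide row. That term leaves 1 HFD heart against the ND hearts. Signal over background limits *Rrm2b*, the dimmer *Polg2* probe and the other *Abat* probe.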
